A study of Mus musculus with 16 samples.

Results

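Messenger RNA was measured for the 10 enzymes that build purine and pyrimidine nucleotides de novo, in erythroblasts sorted from mouse foetal liver. The enzymes are encoded by Ppat, Gart, Pfas, Paics, Adsl and Atic for purines and by Cad, Dhodh, Umps and Ctps1 for pyrimidines. They were taken by symbol from a count table of 55416 genes, and all 10 were found and passed the filter on low counts in every comparison below. The series has 16 libraries from 8 embryos at E13.5, with 1 S1 and 1 S3 library from each embryo. The study asked how maturing red cells fare without Nprl3, a component of the GATOR1 complex, which restrains the nutrient-sensing kinase mTORC1. S1 and S3 are sorted classes set by the surface proteins Ter119 and CD71, in which S1 holds early erythroid progenitors and S3 holds basophilic erythroblasts that make haemoglobin.

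The wild-type (WT, Nprl3+/+) group had 4 embryos, numbered 0, 1, 5 and 8, of which 0 and 8 were male and 1 and 5 female. The Het (Nprl3+/-) group had embryos 3 and 4, both male. The KO (Nprl3-/-) group had embryo 2, a female, and embryo 9, a male. The KO allele is constitutive, lacks the promoter region of Nprl3 and keeps the alpha-globin enhancers that lie in and near the gene. Every cell of the embryo carries it, so the sorted cells also come from a mutant liver. The labels disagree on the source, since some fields give a line of embryonic stem cells and the titles give foetal liver, as do the study's methods. All 13 erythroid markers examined, globin and haem synthesis genes among them, were called higher at S3 than at S1 in WT, and the 4 progenitor markers (Kit, Myb, Gata2 and Cd34) were called lower, which goes with the sort and not with a stem cell line.

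Cells obtain nucleotides either by de novo synthesis from amino acids, bicarbonate and one-carbon units or by salvage of preformed bases and nucleosides. In the purine branch, PPAT takes the committed step on phosphoribosyl pyrophosphate (PRPP), and GART, PFAS, PAICS, ADSL and ATIC complete the ring of inosine monophosphate. In the pyrimidine branch, CAD begins the ring, DHODH oxidises dihydroorotate in the mitochondrion, UMPS makes uridine monophosphate and CTPS1 converts UTP to CTP. mTORC1 is known to promote both branches, through phosphorylation of CAD and through factors that raise the purine and one-carbon genes. Erythroblasts divide several times while they mature and then lose their nucleus, so their need for nucleotides is large and ends within a short time.

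Nprl3 itself was checked first. In S1 libraries it had normalized read counts of 839.7, 691, 735 and 996 in WT embryos 0, 1, 5 and 8, 386 and 396 in Het embryos 3 and 4, and 9.74 and 20.6 in KO embryos 2 and 9, and no 2 genotypes overlapped. At S3 the counts were 5009.5, 4446, 4462 and 6215 in WT, 4463 and 3593 in Het and 3256 and 3377 in KO. All tests here and below are edgeR's quasi-likelihood fits with adjusted p-values, called at a threshold of 0.05, and SE is the standard error of a log2 fold change. The KO libraries at S3 were thus below all WT libraries but not depleted, with a log2 fold change of −0.55 ± 0.19 SE (adjusted p = 0.381), against −5.72 ± 0.43 SE (adjusted p = 0.0212) at S1. The count runs over exons outside the deleted promoter region, so at S3 it does not check the label.

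The S1 libraries held between 23331156 and 36035368 counts in all, and the S3 libraries between 20666044 and 37609502. A normalized read count here is the count scaled by TMM (a trimmed mean of log ratios between libraries) to the average library. It is a level relative to the bulk of genes, and neither a plain share of the counted reads nor an amount per cell. The TMM factors were 1.287 to 1.515 in S1 libraries and 0.691 to 0.813 in S3 libraries. The changes from S1 to S3 below, and the lack of one for Paics, rest on such scaling, since no fit used plain read totals. Globin took 0.0738% to 1.07% of counts at S1 and 10.0% to 11.9% at S3. The S1 libraries were not uniform. WT embryos 0 and 8 had 4207 and 6656 normalized counts of Alas2, the erythroid haem synthesis enzyme, against 353 to 1116 in the other S1 libraries. For Mpo, a neutrophil granule enzyme, the same 2 libraries had 4192 and 2887, against 23376 to 38602 in the other 6.

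From S1 to S3, RNA for 9 of the 10 enzymes fell in WT erythroblasts, and Paics did not. The falls ran from 1.81-fold for Ctps1 to 7.28-fold for Cad, and in each of the 9 every S3 library lay below every S1 library. The share of all genes with the stages so separated was not computed, so no trait particular to the members follows. The pyrimidine genes Cad and Dhodh and the purine gene Atic fell the most, and the 4 purine genes Ppat, Gart, Pfas and Adsl fell by a similar amount, between 3.41-fold and 3.81-fold. With p-values adjusted over all 13514 genes tested, 9 members were called lower and none higher. Of all genes tested, 35% were called lower and 30.6% higher. The median log2 fold change was −1.88 over the members and −0.08 over all genes. The 9 genes were lower at S3 in 8 of 8 embryos across the 3 genotypes, and the share of all genes for which this held was not computed either. In bulk RNA, fewer cells of a type and less RNA per cell cannot be told apart. The S1 and S3 libraries also differed in RNA for markers of other cells, to which the same limit applies. All 8 neutrophil markers examined were called lower at S3 in WT, with a summed normalized count of 3498 to 39875 at S1 and 33.9 to 143 at S3. None of the 8 was at 0 in the S1 groups, while Ngp was at 0 in the WT S3 libraries. The study's antibody panel for foetal liver lists CD11b and Gr1, which are found on neutrophils, while its account of the sort for RNA names Ter119 and CD71. In the same comparison, 9 of 12 macrophage markers were called higher at S3 and none lower, with sums of 917 to 1740 at S1 and 1364 to 2980 at S3. Of 10 hepatoblast markers, 4 were called higher and none lower, with sums of 1505 to 9026 and 4869 to 23059, and the part of these 2 lists was not tested. With the S1 libraries of WT embryos 1 and 5 left out, which had the most neutrophil marker RNA, and equally with those of embryos 0 and 8 left out, 9 members were again called lower. Both settings were chosen after seeing the data.

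**Figure D1:**
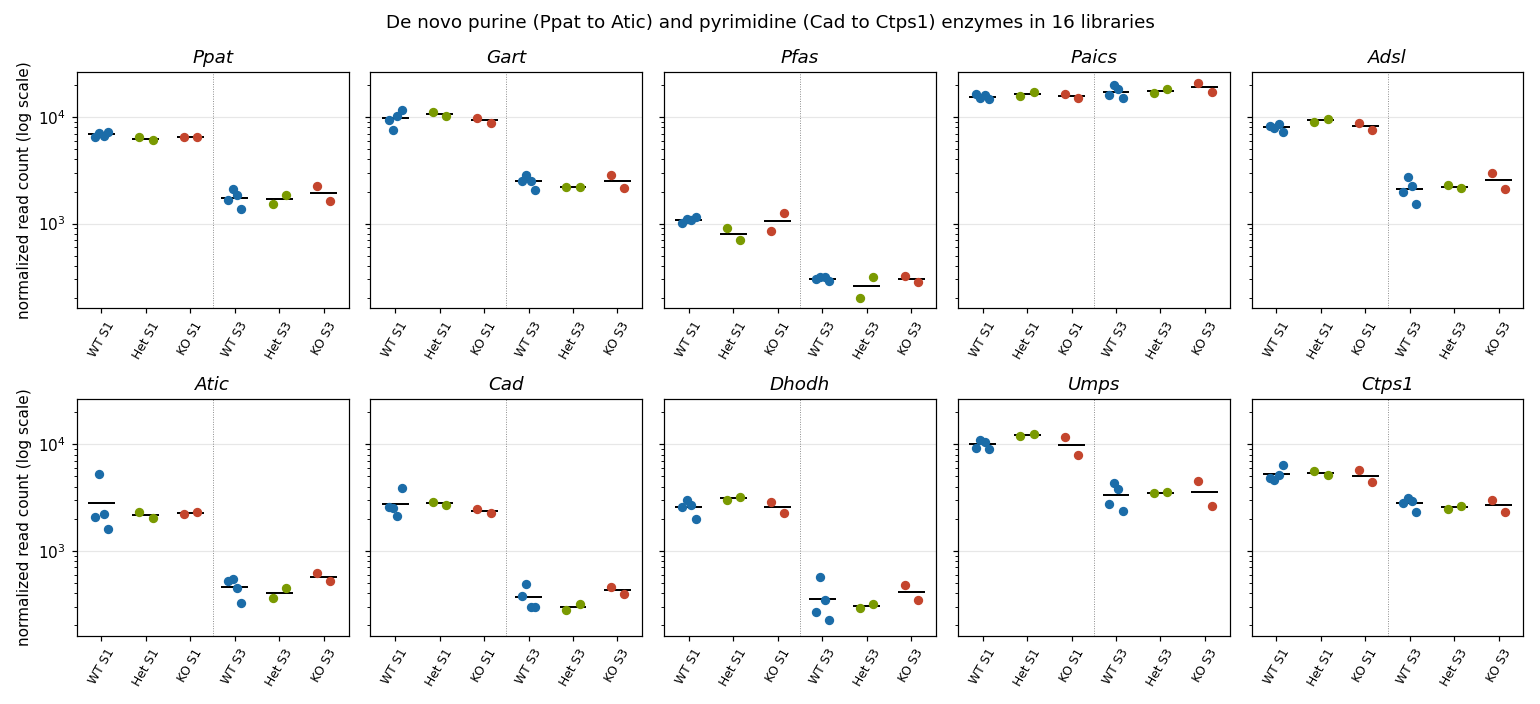
Normalized read counts (log axis) of the 6 purine and 4 pyrimidine enzymes in every library, with groups along the horizontal axis, 1 point per library and a bar at the group mean. In 9 panels all S3 points lie below all S1 points, and in the Paics panel the S1 and S3 points overlap.

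Ppat encodes the amidotransferase that commits PRPP to purines. Its normalized counts were 6537, 7152, 6693 and 7313 in the S1 libraries of WT embryos 0, 1, 5 and 8, and 1668, 2105, 1838 and 1366 in their S3 libraries, the order in which WT values are given from here on. That is a fall of 1.93 on the log2 scale ± 0.14 SE (adjusted p = 1.82e-06). The 2 ranges are far apart, and embryo 8 had both the highest S1 value and the lowest S3 value. Gart, whose product carries 3 activities of the purine path, among them the transformylase that uses a folate one-carbon unit, had 9391, 7557, 10333 and 11633 at S1 and 2523, 2888, 2503 and 2065 at S3. Its log2 fold change was −1.91 ± 0.17 SE (adjusted p = 4.9e-06).

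Pfas, the synthase that adds nitrogen from glutamine, was the least abundant member. Its WT values at S3 lay within 1.08-fold of each other, the narrowest spread of the members in that group. It had 1008, 1096, 1073 and 1159.8 at S1 and 299, 314, 315 and 290.4 at S3, a log2 fold change of −1.77 ± 0.13 SE (adjusted p = 1.93e-06). Adsl, the lyase that acts both in the de novo path and in making AMP from IMP, went from 8158, 7965, 8548 and 7283 to 1959.7, 2749, 2250.0 and 1536, with a log2 fold change of −1.85 ± 0.17 SE (adjusted p = 5.86e-06). The S1 values of Adsl were within 1.17-fold of each other, while those at S3 spread 1.79-fold.

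Atic performs the last 2 reactions that close the purine ring. Its counts were 2084, 5296, 2229 and 1606 at S1 and 517, 545, 452 and 324 at S3, a log2 fold change of −2.54 ± 0.36 SE (adjusted p = 0.000126). The S1 library of embryo 1 stood apart from the other 7 S1 libraries of all genotypes, which lay between 1606 and 2325. Without embryo 1 the log2 fold change was −2.12 (adjusted p = 5.94e-05), so the fall did not rest on that library although its size did in part.

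Among the pyrimidine genes, Cad encodes a single large protein with carbamoyl phosphate synthetase, aspartate transcarbamylase and dihydroorotase activity. It fell from 2592, 2546, 2125 and 3856 to 381, 494, 298 and 297, by 2.86 on the log2 scale ± 0.24 SE (adjusted p = 3.73e-06). Dhodh, the mitochondrial step, went from 2601, 2971, 2719 and 2002 to 268, 571, 346 and 225, with a log2 fold change of −2.81 ± 0.27 SE (adjusted p = 8.97e-06). These were the largest falls among the members, and 7.85% and 8.16% of all genes tested had a lower log2 fold change than Cad and Dhodh, respectively.

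Umps, which ends the path to uridine monophosphate, had 9230.1, 11063, 10541 and 8999 at S1 and 2751, 4363, 3838 and 2368 at S3 (log2 fold change −1.52 ± 0.19 SE, adjusted p = 4.61e-05). Ctps1, which makes CTP, had 4876, 4602, 5111 and 6395 at S1 and 2828, 3102, 2912 and 2292 at S3 (log2 fold change −0.86 ± 0.15 SE, adjusted p = 0.00051). The lowest S1 library of Ctps1 was 1.48-fold above its highest S3 library.

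Paics encodes a bifunctional enzyme for the carboxylation of aminoimidazole ribonucleotide and the addition of aspartate that follows. Its counts were 16433, 14999, 15947 and 14865 at S1 and 16206, 19761, 18210.4 and 15079 at S3, with a log2 fold change of 0.21 ± 0.12 SE (adjusted p = 0.153). The ranges overlapped, and Paics was higher at S3 in 7 of 8 embryos, WT embryo 0 being the exception. In KO its log2 fold change was 0.37 ± 0.16 SE (adjusted p = 0.106), from 16274 and 15110.0 at S1 to 21022 and 17300.2 at S3 in embryos 2 and 9. With the embryo as a replicate block the KO value was 0.37 with an adjusted p of 0.00337, and with all 16 libraries in 1 fit it was 0.39 with an adjusted p of 0.0363, so the call of a rise in KO depends on the fit. DESeq2 gave unadjusted p-values under 0.05 for Paics in all 3 genotypes and adjusted p-values of 0.0612 in WT, 0.061 in KO and 0.0568 in Het.

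Paics and Ppat lie head to head on chromosome 5. In mm39, Ppat runs from 77061096 to 77099436 on the minus strand and Paics from 77099139 to 77116370 on the plus strand, so that their 5′ ends overlap by 298 bases. Counting did not use the strand and left out reads that fell on both genes, so reads in the shared stretch entered neither count. In RefSeq's GRCm38.p6 the starts used for the promoter windows are 276 bases apart. These windows, from 250 bases before to 50 bases after each start, are shown because the divergent pair behaved differently, with matches to the searched motifs in capitals.
Ppat, chr5:76951529-76951828, minus strand: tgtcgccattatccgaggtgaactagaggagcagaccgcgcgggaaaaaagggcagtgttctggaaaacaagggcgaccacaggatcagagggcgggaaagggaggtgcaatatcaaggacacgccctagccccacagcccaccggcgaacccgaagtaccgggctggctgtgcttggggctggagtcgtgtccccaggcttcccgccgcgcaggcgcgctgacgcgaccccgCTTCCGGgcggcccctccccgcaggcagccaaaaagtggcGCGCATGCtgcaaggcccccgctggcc
Paics, chr5:76951052-76951351, plus strand: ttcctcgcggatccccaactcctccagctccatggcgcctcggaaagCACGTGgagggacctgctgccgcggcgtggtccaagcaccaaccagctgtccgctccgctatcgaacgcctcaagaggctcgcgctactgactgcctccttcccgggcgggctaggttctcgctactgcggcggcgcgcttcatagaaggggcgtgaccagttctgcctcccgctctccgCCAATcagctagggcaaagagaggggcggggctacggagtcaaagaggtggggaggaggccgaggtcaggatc
In the Ppat window the capitals mark an ETS core (CCGGAAG) on the reverse strand at position 234 of the window and an NRF1 core (GCATGCGC) on the reverse strand at position 274, counted from the 5′ end. In the Paics window they mark an E-box (CACGTG), the sequence that MYC and its partners bind, at position 48 and a CCAAT box at position 228. The 2 windows do not overlap.

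Windows were found for 7 of the 10 members, namely Ppat, Gart, Paics, Adsl, Atic, Cad and Umps. Each motif was searched on both strands. CACGTG was found in Paics and Atic and in 7.15% of all 32851 windows of the table. CCGGAAG was found in Ppat and Gart and in 8.86% of windows, GCATGCGC in Ppat and in 2.71%, and the erythroid GATA motif, searched as AGATAA, in Umps and in 11.2%. CCAAT was found in Paics, Gart and Atic and in 37.4% of windows, and TTTCGCGC (an E2F site) in none of the 7 and in 0.323%. Paics thus shared CACGTG with Atic and CCAAT with Atic and Gart, which are members that fell.

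The divergence of the pair was seen in every embryo. In S1 libraries the Paics count was 2.03 to 2.86 times the Ppat count, with a median over 8 libraries of 2.39. In S3 libraries it was 9.36 to 11.04 times the Ppat count, with a median of 9.9. No S1 library came near any S3 library, and within a stage the 3 genotypes overlapped. The pair was singled out after these values were known, so no test is given for the ratio.

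**Figure D2:**
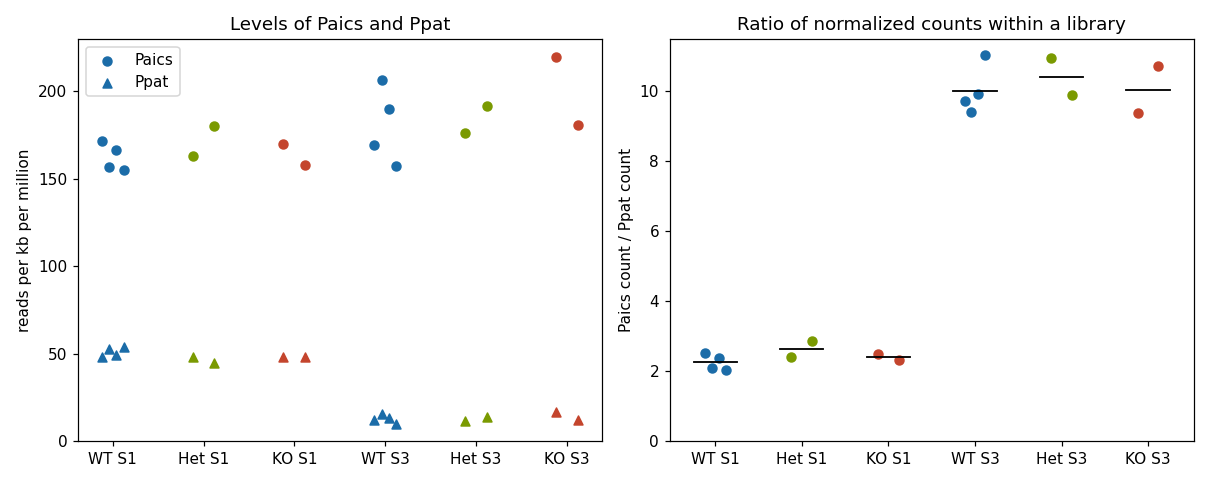
Left, length-scaled level (RPKM) of Paics (circles) and Ppat (triangles) in every library. Right, the ratio of their normalized counts within a library, with bars at the group mean. The ratio lies between 2.03 and 2.86 in all S1 libraries and between 9.36 and 11.04 in all S3 libraries.

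To compare levels between genes, counts were divided by the exon length in the count file and scaled to the TMM-adjusted library size (RPKM), with no test. In WT S1 libraries the order was Paics (mean 162 ± 7.88 SD, n = 4), Umps (93.6 ± 9.42), Gart (61.9 ± 10.9), Ctps1 (51.8 ± 7.84), Ppat (51.3 ± 2.73), Adsl (46.4 ± 3.08), Dhodh (13.3 ± 2.13), Atic (11.5 ± 6.9), Cad (11.1 ± 2.99) and Pfas (4.48 ± 0.258). Neighbours from Gart to Adsl overlapped in their ranges, as did those from Dhodh to Cad. At S3 Paics, at 181 ± 21.7, was followed by Umps at 31.3 ± 8.73 and Ctps1 at 27.5 ± 3.43. Gart, Ppat and Adsl then lay between 12.3 and 15.9. Atic, Dhodh, Cad and Pfas, the last 4, had means from 1.26 to 1.89 and overlapped neighbour by neighbour. The mean level of Paics at S3 was 11.4 times that of Gart, the next purine member.

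The 3 genotypes showed the same set of calls from S1 to S3. In KO, 9 members were called lower and none higher, against 28.4% of all genes called lower, and the median log2 fold change of the members was −1.70. In Het, 9 were called lower and none higher, against 39.6% of all genes, with a median of −1.85. Markers of other cells moved as well. Of 11 macrophage markers tested, 3 were called lower and none higher in KO, and 8 higher and 2 lower in Het. Of 10 hepatoblast markers, 0 were called in KO and 8 were called higher in Het. Neutrophil markers were called lower for 4 of 8 in KO and 6 of 6 in Het, and the part of these lists was not tested. Cad went from 2489 and 2257 to 454 and 397 in KO embryos 2 and 9 (log2 fold change −2.39 ± 0.17 SE) and from 2903 and 2704 to 282 and 316 in Het embryos 3 and 4 (−3.11 ± 0.14 SE). Dhodh had a log2 fold change of −2.55 ± 0.23 SE in KO and −3.25 ± 0.14 SE in Het. Ctps1 again fell the least of the 9, by 0.83 in KO (adjusted p = 0.0158) and by 0.95 in Het (adjusted p = 5.1e-08), and without Het embryo 3 its log2 fold change was −0.79 (adjusted p = 0.0676). That last fit has 1 Het library per stage and takes its spread from the other genotypes, on the assumption that Het varies like them, and with all 16 libraries in 1 fit the adjusted p was 0.00144. The main fits rest on 2 embryos, whose spread is estimated with help from all genes.

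**Figure D3:**
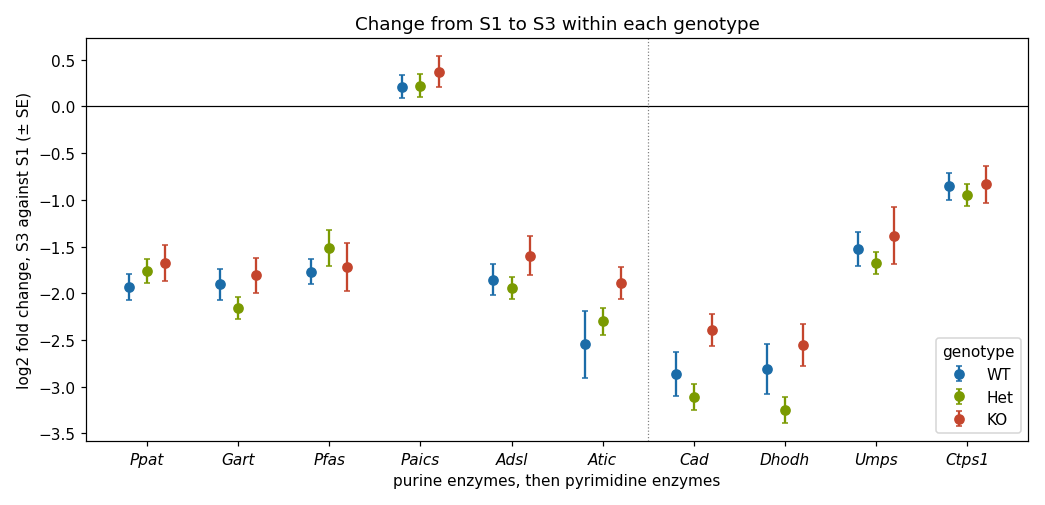
Log2 fold change from S1 to S3 with its standard error for each member in WT (4 embryos), Het (2) and KO (2). The 9 falling members lie between −3.25 and −0.83 and Paics between 0.21 and 0.37.

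Whether the change with maturation differed by genotype was tested as an interaction. For KO against WT, 0 of 10 members were called, and the interaction was above 0 for all 10, from 0.05 for Ctps1 to 0.66 for Atic, with a median of 0.23 against 0.04 over all genes. Its standard errors ran from 0.20 to 0.52. The value of Atic depended on which WT S1 libraries were used, at 0.22 without embryo 1 and 1.05 without the S1 libraries of embryos 0 and 8. Without KO embryo 2 the interaction was below 0 for Gart and Pfas, and without WT embryo 8 for Gart and Ctps1, as it also was without the S1 libraries of WT embryos 0 and 8. For Het against WT, 0 of 10 were called, with values from −0.44 for Dhodh to 0.24 for Atic, and without WT embryo 1 these were −0.22 and −0.20. Of all genes, 0.00742% were called for KO and 0% for Het. No member had an unadjusted p under 0.05 in either interaction, by edgeR or by DESeq2.

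Loss of Nprl3 was next examined within each stage. At S1, 0 of the 10 members were called between KO and WT, against 0.00712% of all genes, and none had an unadjusted p under 0.05 by edgeR or DESeq2. The log2 fold changes ran from −0.29 for Atic to 0.04 for Adsl, with standard errors from 0.15 to 0.44. The value of Atic turned to 0.19 without WT embryo 1, whose S1 library stood apart, and was −0.72 without the S1 libraries of embryos 0 and 8. KO and WT libraries overlapped for all 10, while 9.92% of all genes had groups that did not overlap. The spread within KO was wide for some members, as for Umps, with 11644 and 7944 in embryos 2 and 9 against 8999 to 11063 in WT, and Pfas, with 860.1 and 1255 against 1008 to 1159.8. Without the S1 libraries of WT embryos 0 and 8, again 0 members were called. The summed neutrophil markers were 46569 to 47804 in the KO S1 libraries, above the WT range given above. The macrophage sums, 2136 to 2161 in KO, were also above those of WT, although 4 of 12 macrophage markers had a log2 fold change above 0 and their median was −0.58. Erythroid markers were below 0 for 12 of 13 (median −1.06) and hepatoblast markers for 10 of 10 (median −0.90), with none called in any of these 4 lists, and their part in this comparison was not tested further.

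At S3, all 10 members had a log2 fold change above 0 in KO against WT and 0 of 10 were called, against 0.559% of all genes. None had an unadjusted p under 0.05 by edgeR or DESeq2. The values ran from 0.004 for Ctps1 to 0.38 for Atic ± 0.20 SE (adjusted p = 0.697), with a median of 0.21 against 0.01 over all genes. Atic had 621 and 522 in KO embryos 2 and 9 against 324 to 545 in WT. Adsl had 2990.3 and 2093 against 1536 to 2749, a log2 fold change of 0.32 ± 0.22 SE. Cad had 454 and 397 against 297 to 494 (0.27 ± 0.23 SE), and Dhodh 479.9 and 348 against 225 to 571 (0.29 ± 0.34 SE). The groups overlapped for all 10 members, while 18.7% of all genes had groups that did not.

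The common sign at S3 came with differences between embryos that the members shared. KO embryo 2 was above the WT mean for 10 of 10 members, with a median log2 difference of 0.36, and KO embryo 9 for 5 of 10, with a median of −0.04. Without embryo 2, the log2 fold change turned below 0 for Ppat (−0.04), Gart (−0.14), Pfas (−0.02), Umps (−0.27) and Ctps1 (−0.18). Among WT embryos, embryo 1 was the highest of the 4 for 9 of 10 members and embryo 8 the lowest for 10 of 10. Embryo 8 also had the most Alas2 of the WT S3 libraries, with 393440 normalized counts, and embryo 1 the least, with 289840. The members thus varied together between embryos, and the summed erythroid markers were 4756100 to 4765400 in the KO S3 libraries against 5314000 to 6244000 in WT. The part of these differences in maturity markers was not tested. Markers of macrophages, which pair with erythroblasts in the foetal liver, had log2 fold changes below 0 in KO at S3 for 12 of 12, with a median of −1.39 and 2 called lower (Marco and Lyz2). Their summed counts were 691 to 1076 in KO and 1364 to 2980 in WT, and no marker was at 0. Hepatoblast markers were below 0 for 10 of 10, with a median of −1.47 and none called, and their sums were 2051 to 5960 in KO and 4869 to 23059 in WT, again with none at 0. The part of these 2 lists in the members' values was not tested.

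**Figure D4:**
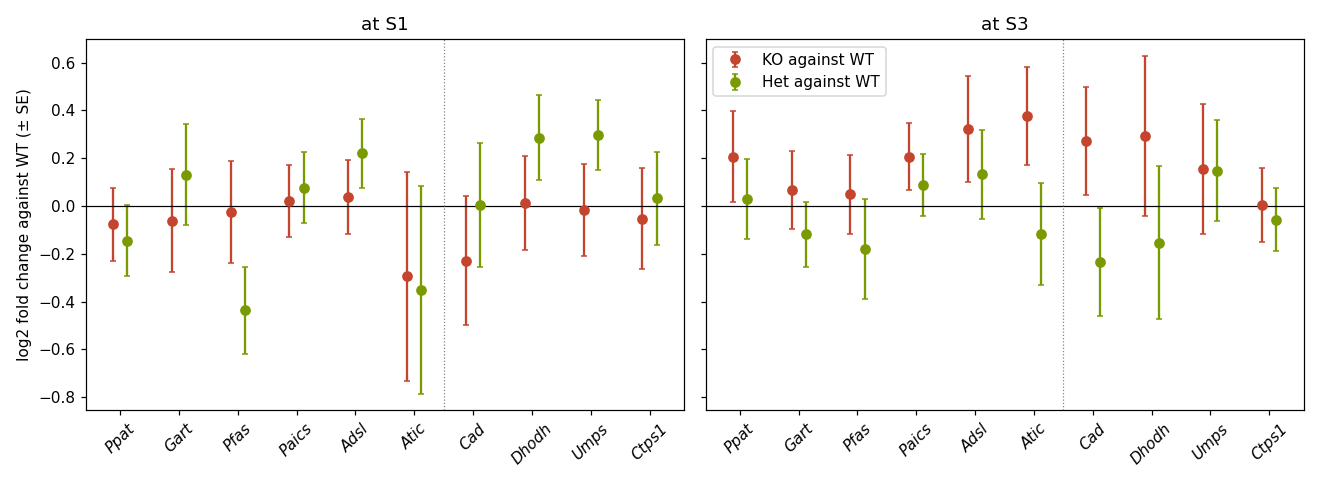
Log2 fold change against WT with its standard error for each member at S1 (left) and S3 (right), for KO and Het. At S3 all 10 KO values lie between 0.004 and 0.38, and no value in either panel passed the test.

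Het embryos, with 1 allele, gave no called member at either stage, against 0% of all genes called at S1 and 0% at S3. At S1 the Het libraries lay outside the WT range for 5 members, above it for Adsl, Dhodh and Umps and below it for Ppat and Pfas, and 18% of all genes had groups that did not overlap. The Het S1 libraries also lay outside the WT range for the summed neutrophil markers (45312 to 45545 against 3498 to 39875), erythroid markers (71006 to 77738 against 86625 to 303160), hepatoblast markers (678 to 1127 against 1505 to 9026) and megakaryocyte markers (588 to 635 against 1006 to 1924), whose part was not tested. Pfas had 900.4 and 705 in embryos 3 and 4 against 1008 to 1159.8 in WT (log2 fold change −0.44 ± 0.18 SE, adjusted p = 0.905), and it was the only member with an unadjusted p under 0.05 by edgeR, and also by DESeq2. Umps had 12073 and 12354 against 8999 to 11063 (0.30 ± 0.15 SE). At S3 Het and WT overlapped for all 10 members, while 14.8% of all genes did not overlap, and no member had an unadjusted p under 0.05 by edgeR or DESeq2. Log2 fold changes there were above 0 for 0 of 10 hepatoblast markers (median −1.33), 0 of 12 macrophage markers (−0.32) and 0 of 6 megakaryocyte markers (−0.88), with none called. The hepatoblast sums were 3459 to 4676 in Het and 4869 to 23059 in WT, while the macrophage and megakaryocyte sums overlapped. The part of these lists was not tested. With sex as a covariate, which leaves the Het males to be set against WT embryos 0 and 8, Umps was called higher at S3 (log2 fold change 0.49, adjusted p = 0.0103), in a fit that called 2124 of 11746 genes against 0 without the covariate.

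The genes around the pathway moved in both directions from S1 to S3 in WT. Of 14 tested genes that supply PRPP or lead on from IMP and UTP, 10 were called lower and 1 higher, against 35% and 30.6% of all genes, with a median log2 fold change of −1.32. Impdh1, which directs IMP to guanine nucleotides, had 503 to 654 at S1 and 37.9 to 55.5 at S3 (log2 fold change −3.56 ± 0.20 SE, adjusted p = 5.01e-07). Prps2, a PRPP synthetase, fell 4.19-fold, and Prpsap1, a protein associated with PRPP synthetase, fell 6.29-fold. Prps1 and Gmps, with values of −0.21 and −0.23, were not called, and Cmpk1, a UMP-CMP kinase, was the 1 gene called higher. Thus most of the supply and exit steps fell with the members.

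Enzymes that turn ribonucleotides into DNA precursors had calls in both directions. Of 7 tested, 3 were called higher (Rrm1, Rrm2 and Tyms) and 2 lower (Dctd and Dut), near the 30.6% and 35% of all genes, with a median of −0.20. Rrm2, the regulated subunit of ribonucleotide reductase, rose from 28688 to 39154 at S1 to 135060.0 to 193640.0 at S3 (log2 fold change 2.37 ± 0.18 SE, adjusted p = 2.11e-06). Tyms, thymidylate synthase, rose 2.81-fold (adjusted p = 3.75e-05). Dctd, dCMP deaminase, had 1633 to 2211 at S1 and 10.5 to 84.2 at S3, a log2 fold change of −5.37, the largest fall of this group.

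Of 14 tested salvage genes, 6 were called higher (Dck, Dguok, Hprt1, Pnp, Pnp2 and Tk1) and 5 lower (Ada, Aprt, Tk2, Uck2 and Uprt), also near the shares over all genes (30.6% and 35%), with a median of 0.11. Dck, the deoxycytidine kinase, had 3754 to 7558 at S1 and 24804 to 27935 at S3, a 5.08-fold rise (adjusted p = 7.25e-06). Uck2, a uridine-cytidine kinase, fell 3.82-fold (adjusted p = 3.73e-06). Pnp2, a purine nucleoside phosphorylase with a close relative in Pnp, rose 5.22-fold (adjusted p = 4.02e-06), and reads shared between that pair could not be counted to either.

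Of 11 tested genes of nucleotide breakdown, 4 were called higher and 5 lower, where 30.6% and 35% of all genes were, with a median of 0.22. Nt5c3, the pyrimidine 5′-nucleotidase of red cells, rose the most of this group, from 5741 to 6433 at S1 to 50700.0 to 61706 at S3 (log2 fold change 3.26 ± 0.15 SE, adjusted p = 2.2e-07). Its relative Nt5c3b fell 5.12-fold and the mitochondrial nucleotidase Nt5m fell 3.52-fold. Thus Nt5c3 rose over the interval in which the 4 pyrimidine synthesis genes fell.

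Genes that feed the de novo path had calls in both directions, as did all genes (30.6% higher and 35% lower). Of 7 tested folate genes, which supply the one-carbon units of GART and ATIC, 2 were called higher and 3 lower. Shmt1 and Mthfd1, the cytosolic enzymes, fell 6.97-fold and 4.77-fold (adjusted p = 1.25e-06 and 9.49e-06). Mthfd2, a mitochondrial enzyme of the same route, rose 3.02-fold, from 3558 to 5088 to 11156 to 13507 (adjusted p = 7.75e-06). Of 10 tested genes of glutamine and aspartate supply, 4 were called higher and 5 lower. Slc1a5, a glutamine transporter, rose 11.2-fold and Glul, glutamine synthetase, 6.92-fold (adjusted p = 2.47e-06 and 2.56e-06), while Got1, the cytosolic aspartate aminotransferase, fell 3.95-fold (adjusted p = 1.32e-06).

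Among 7 tested transcription regulators linked to these genes, 2 were called lower and 2 higher, against 35% and 30.6% of all genes. Myc, a known activator of nucleotide synthesis genes, had 7899.8 to 10502 at S1 and 450.4 to 913 at S3 (log2 fold change −3.62 ± 0.22 SE, adjusted p = 5.92e-07). Tfap4, an E-box binding factor, fell from few counts, with 52.1 to 59.1 at S1 and 2.1 to 9.03 at S3. Nrf1 rose 2.71-fold (adjusted p = 1.52e-05), and Atf4, which drives amino acid and one-carbon genes under mTORC1, was also called higher.

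**Figure D5:**
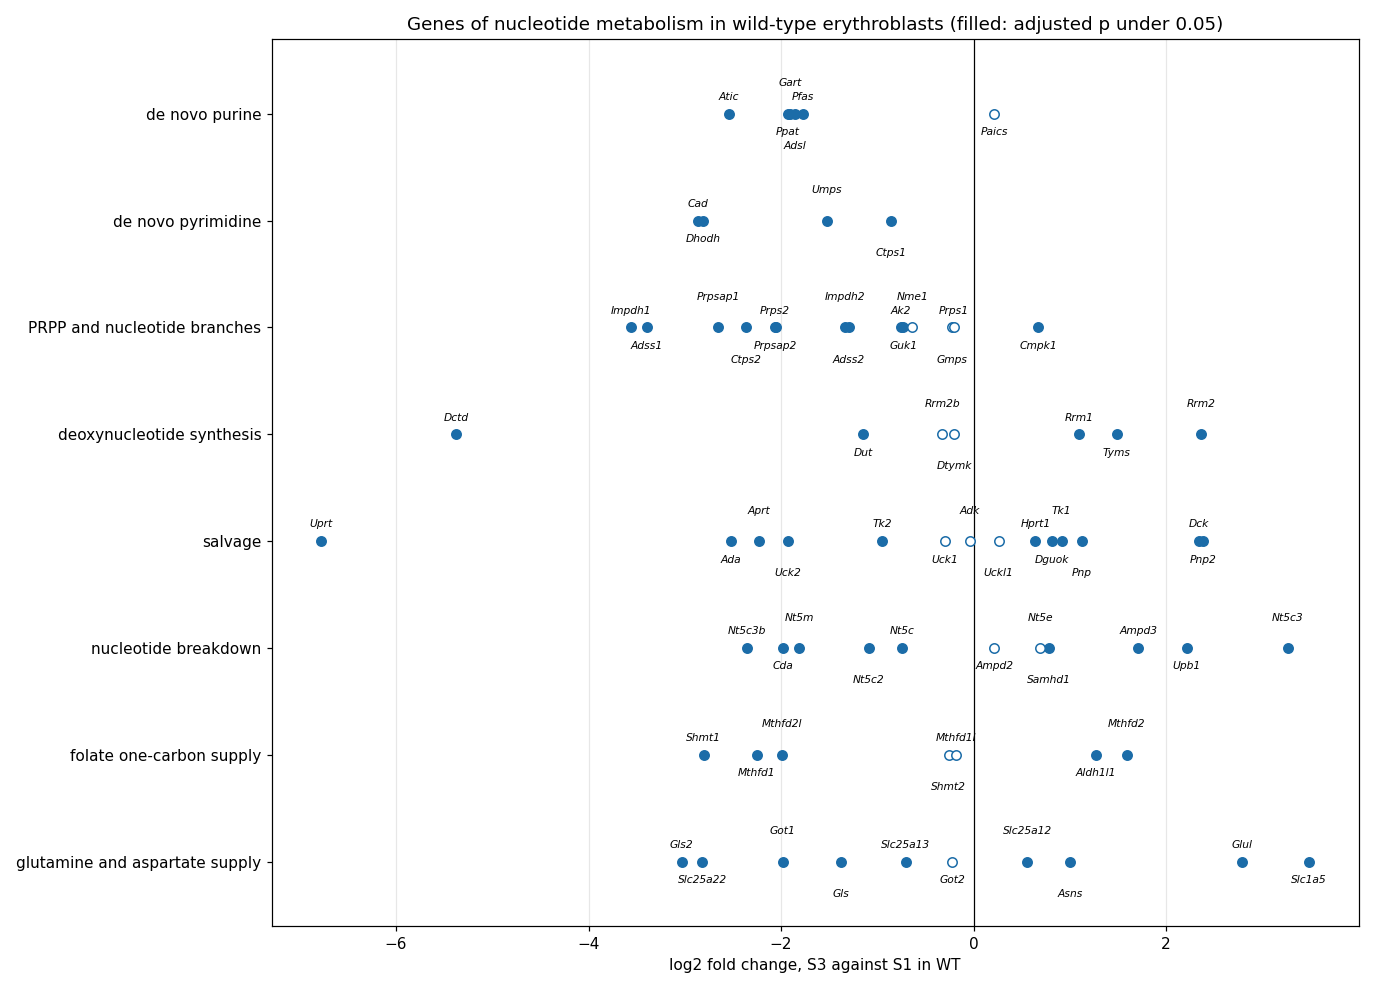
Log2 fold change from S1 to S3 in WT for each tested gene of 8 groups, 1 gene per point, filled where the adjusted p was under 0.05. The de novo genes other than Paics lie between −2.86 and −0.86, while deoxynucleotide synthesis and salvage genes spread to both sides of 0.

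In KO against WT at S3 the same groups held 1 called gene of 64 tested, where 0.559% of all genes were called. Ampd2, an AMP deaminase, had 5114 and 5382 in KO against 2758 to 3255 in WT, a 1.81-fold difference (log2 fold change 0.85 ± 0.13 SE, adjusted p = 0.0348). The call was lost in every fit that left out 1 embryo, with adjusted p from 0.0672 to 0.187, and with all 16 libraries in 1 fit (0.288). Samhd1, a dNTP hydrolase, had a log2 fold change of 0.71 (adjusted p = 0.119), Shmt2, the mitochondrial serine hydroxymethyltransferase, 0.61 (adjusted p = 0.173) and Slc25a22, a mitochondrial glutamate carrier, 1.04 (adjusted p = 0.157). None of these 3 was called, although all 3 passed with DESeq2 and with sex as a covariate. Myc was at 792 and 952 in KO against 450.4 to 913 in WT (adjusted p = 0.816).

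The genes outside the pathway whose profile over the 16 libraries was most like the mean of the members' standardised log2 values were Ddx18 (Pearson r = 0.997), Ltv1 (0.996), Slc7a6 (0.996), Hspd1 (0.995) and Aen (0.995), out of 13402 genes compared. The libraries fall into 2 stages and come in pairs from 8 embryos, so these values mostly rank how evenly a gene differed between the stages.

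Some counts of the members are less certain than others. Gart overlaps Son on the opposite strand by 588 bases and Umps overlaps the antisense gene Gm15829, and reads on both genes of a pair were left out. Adsl holds within its bounds the small processed pseudogene Gm6612, which had 1061 reads over the 16 libraries. Ctps1 has a processed pseudogene, Gm16465, that matches it at 92.3% identity over 1778 bases and had a mean of 0.246 normalized counts, so few of the reads of Ctps1 could have been assigned there.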

How the data were processed

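Poly(A) RNA from S1 and S3 erythroblasts of 8 embryos was amplified with a SMARTer protocol and sequenced as read pairs. The authors mapped reads to mm39 with STAR 2.7.9 and counted them with featureCounts 1.6.4 on Ensembl release 104. They deposited raw counts per gene, and per the file header the strand was not used and reads on several places or genes were left out. Of 55416 genes, 54749 were matched to a symbol in GENCODE release 39 and 667 were not. A further 4 libraries in the table correspond to none of the samples analysed here and were not used. Groups, embryo numbers and sex came from the labels.

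TMM scaling and edgeR 4.0.16 in R 4.3.3 (functions glmQLFit and glmQLFTest) were applied to the libraries of each comparison, without covariates. A gene entered a comparison if its mean exceeded 10 normalized counts there, and Benjamini-Hochberg adjustment covered every gene that entered. The fits were tested on simulated counts. Alternatives were DESeq2 1.42.0, other scalings, no filter, all 16 libraries in 1 fit, the embryo as a block, sex as a covariate and each embryo left out. DESeq2 is the tool the study used, at a threshold of 0.05.

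The 10 members and all gene lists were chosen with earlier results of these data known, and the lists are described by counts and medians. An item of 1 list is not reported here and entered none of its counts. The other named genes are, from each list of neighbouring genes, the 3 with the smallest p from S1 to S3 in WT and the 3 with the smallest p in KO against WT at S3. Others are named for completeness of a list's calls or as not called, after their values were seen. Same-numbered S1 and S3 libraries come from 1 animal. Deviations from the group mean were correlated between the stages over 13402 genes, with values of 0.0677, 0.207, 0.308 and 0.295 for WT embryos 0, 1, 5 and 8, 0.38 for the KO embryos and 0.0405 for the Het embryos. Promoter sequences were taken from a RefSeq table on GRCm38.p6, and near-identical copies were sought among GENCODE transcripts with minimap2, keeping alignments of at least 200 bases at 90% identity. The number of embryos per group limits the precision, and the effect of depth was not tested.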

Additional observations from a re-analysis of the deposited data

Results flagged for a closer look

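In the S1 library of WT embryo 1, Atic had 5296 normalized counts, while the other 3 WT S1 libraries had 1606 to 2229. The gap to the next library was a larger part of the range than Dixon's 95% critical value for 4 samples allows. This was the only library singled out in 22 sets of 4 (10 members and Nprl3 in WT at each stage), and chance gives about 1 in 20. The other members did not stand apart in that library.

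Nprl3 changed differently from S1 to S3 in KO and WT, with an interaction of 5.17 on the log2 scale (edgeR, adjusted p = 0.000305). Its RNA was near absent from KO libraries at S1 and at 3256 and 3377 normalized counts in KO libraries at S3. The count includes exons outside the deleted promoter region. The paper describes spliced, non-coding transcripts that start at the enhancers and confound the measurement of Nprl3. Its promoter-specific PCR assay detected no Nprl3 mRNA in Nprl3-/- cells. The part of such transcripts in these counts was not tested.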

How the results depend on the processing

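The count of 9 members lower at S3 was the same under all alternatives in WT and KO and was 8 or 9 in Het, where Ctps1 lost its call without embryo 3. Fits that left out 1 of 2 KO or Het embryos had 1 library per group, which was assumed to vary like the remaining groups (those of all genotypes for S1 against S3), so they give no measure of the spread within KO or Het. Members called higher went from 0 to 1 in KO (Paics) with the embryo as a replicate block and with all 16 libraries in 1 fit. The replicate block changed no other call of a member. With sex as a covariate, members called higher in Het against WT at S3 went from 0 to 1 (Umps). No member was called in any other genotype comparison or interaction under any alternative.

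For KO against WT at S3, none of the members was called under any alternative, but small values changed sign. Without KO embryo 2 the log2 fold change was −0.039 for Ppat, −0.14 for Gart, −0.024 for Pfas, −0.27 for Umps, −0.18 for Ctps1 and −0.052 for Gmps, a gene of guanine nucleotide synthesis. Without WT embryo 8 it was −0.024 for Gart and −0.088 for Ctps1. Ctps1, at 0.004, also turned to −0.0084 with DESeq2, −0.0079 with RLE size factors, −0.0070 without the filter, −0.0081 with all 16 libraries, −0.0025 with sex as a covariate and −0.0011 without WT embryo 5. The leave-out values of Ctps1 ran from −0.18 to 0.17, of Gart from −0.14 to 0.25, of Ppat from −0.039 to 0.42, of Pfas from −0.024 to 0.12, of Umps from −0.27 to 0.48, of Gmps from −0.052 to 0.38 and of Tyms, at −0.097, from −0.33 to 0.10 (the latter without KO embryo 9). At S1, KO against WT, Atic ran from −0.47 to 0.19 and Adsl from −0.086 to 0.14, and without the S1 libraries of WT embryos 0 and 8 Adsl was −0.00054 and Atic −0.72. The interaction of Ctps1 ran from −0.16 to 0.12 in KO, and was −0.11 without those 2 libraries, and that of Atic from −0.20 to 0.49 in Het, and was 0.64 without them. The cause was not tested.

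Counts over all genes in KO against WT at S3 moved more than those of the members, from 66 to 259 with DESeq2, 356 without the filter, 112 with all 16 libraries, 547 with sex as a covariate and 11 to 42 without 1 embryo. At S1 the count of 1 became 45 with DESeq2 and 21 with sex as a covariate, and for Het it went from 0 to 30 and 397. With 2 KO and 2 Het embryos, differences as small as those of the members cannot be told from the spread between embryos. The KO call of Nprl3 at S1 was lost when embryo 0 or 5 of WT or either KO embryo was left out (adjusted p from 0.0876 to 0.152) and kept without WT embryo 1 or 8.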
